A study of Caenorhabditis elegans with 27 samples.

Results

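Most piRNA genes of Caenorhabditis elegans lie in 2 large clusters on chromosome IV, and the piRNAs described here are the ones that do not. They were taken by position alone: every row of the sRNA count table annotated as a piRNA (a 21ur gene) in WBcel235 that did not start on chromosome IV between bases 4500000 and 7000000 (the left cluster) or between bases 13500000 and 17200000 (the right cluster). This gave 696 of the 9849 piRNAs in the table, against 1687 in the left cluster and 7466 in the right cluster. Of the 696, 329 were on chromosome IV but outside the cluster limits, 110 on V, 82 on X, 63 on II, 59 on I and 53 on III. On chromosome IV, 20 lay before the left cluster, 191 between the clusters and 118 beyond the right cluster.

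piRNAs of C. elegans, also called 21U RNAs, are germline small RNAs carried by the Argonaute PRG-1, which uses them to recognise transcripts by base pairing. Each is transcribed from its own short gene, most often under a conserved upstream motif, and is trimmed at its 3′ end by the exonuclease PARN-1. A transcript recognised by PRG-1 becomes the template from which RNA-dependent RNA polymerases make antisense siRNAs (22G RNAs). Poly(U) polymerases (PUPs) add uridine to the 3′ ends of RNA.

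Small RNAs were sequenced from whole 1-day adult hermaphrodites raised at 22°C, in 27 libraries of 8 genotypes. Wild type (N2) had 6 libraries and each of 7 mutants had 3. The single mutants were pup-1(tm1021), which is written pup-1(0) below, pup-2(tm4344), pup-3(tm5089) and the CRISPR-Cas9 deletion pup-4(om141). The double mutant carried pup-1/-2(om129), an allele that affects both genes at once. The triple mutant carried this allele with pup-3(tm5089), and the quadruple mutant carried it with both pup-3(tm5089) and pup-4(om141), so 4 strains lacked pup-1. Strains that carried a pup-1, pup-2 or pup-1/-2 allele had been kept over a balancer chromosome, and the animals sequenced lacked both the maternal and the zygotic product. The comparison of each mutant with N2 asked which sRNAs depend on each polymerase for their abundance.

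Libraries held between 972048 and 17562388 counts, of which piRNAs took 1.78% to 5.72% and the 696 piRNAs outside the clusters took 0.0832% to 0.216%. The genotypes could not be checked from these values, because the table counts sRNAs and not pup transcripts. Searched by the symbols pup-1 to pup-4, only pup-3 had a row, for siRNAs antisense to it, which held counts in all 27 libraries. Other names of these genes were not searched. N2 replicate 1 stood apart from the other N2 libraries: its right-cluster piRNAs summed to 75970 CPM against 20046 to 27698 in the other 5. Levels are given as CPM, counts scaled to a common library size, here the total corrected by the trimmed mean of M values (TMM).

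The outside piRNAs were few in counts and very unequal. Together they summed to 277547 counts, yet the median piRNA held 6 counts over all 27 libraries, 265 held 3 or fewer, and 281 had no count in any N2 library. Only 41 were counted in every library. A single one, 21ur-12947, carried 35.8% of all the counts and the 10 highest carried 71.4%. With a minimum count of 10, 102 of the 696 (14.7%) entered the test, against 14% of the left-cluster and 26.3% of the right-cluster piRNAs. A piRNA that entered only through a genotype in which it was high had to differ between genotypes, so the counts below describe the tested piRNAs and not all 696.

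The outside piRNAs differed from those of the clusters in their relation to other genes. Of the 696, 157 (22.6%) lay antisense to an annotated exon of another gene, 120 lay on the same strand as an exon and 419 (60.2%) overlapped none. In the left and right clusters 3.32% and 2.20% were antisense to an exon, and 91.3% and 94.9% were free of exons. Counts were more uneven than loci. The 157 antisense piRNAs took 85.0% ± 7.03 (SD, n = 6) of the outside counts in N2, with a lowest library of 72.8% (replicate 1) and a highest of 91.4%, while antisense piRNAs took 1.13% of the left-cluster and 3.54% of the right-cluster counts. In all 27 libraries the share on outside antisense piRNAs was between 72.8% and 91.4%. This grouping by exons was made after the values had been seen and was not tested.

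**Figure D1:**
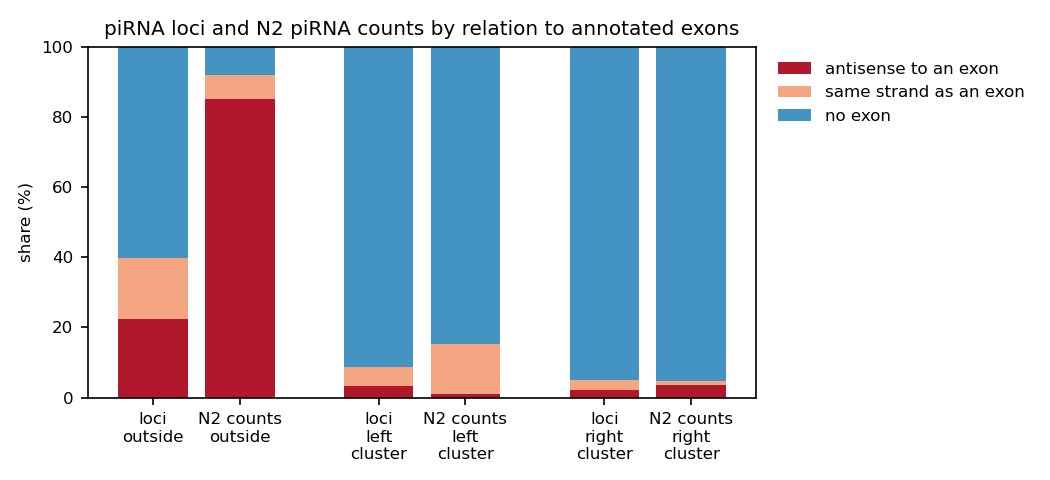
Shares (%) of piRNA loci and of N2 piRNA counts (mean of 6 libraries) that were antisense to an annotated exon, on the same strand as an exon, or free of exons, for piRNAs outside the clusters, in the left cluster and in the right cluster. Antisense piRNAs made up 22.6% of the outside loci and 85.0% of their N2 counts, and 2.20% of loci and 3.54% of counts in the right cluster.

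How the reads were counted bears on this. piRNA rows took reads of both strands at the locus, and siRNA rows took reads antisense to coding sequence summed per gene, so a read antisense to coding sequence at a piRNA locus met both definitions. Of the 157, 109 lay antisense to coding sequence (55.7% of all outside counts over the 27 libraries), 24 antisense to an untranslated region (UTR; 2.33%), 12 antisense to a pseudogene (15.6%), 8 antisense to a lincRNA (11.1%) and 4 antisense to other non-coding RNAs (0.0357%). The 94 outside piRNAs on the same strand as coding sequence also took reads of the opposite strand, which are antisense to that sequence. Whether reads at any of these loci were piRNAs or siRNAs against the overlapping transcript was not tested. The table holds neither read lengths nor first bases.

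The highest outside piRNAs in N2 showed the same arrangement. Of the 20 highest, 16 were antisense to an exon, 2 were on the same strand as one and 2 were free of exons. 21ur-12947, antisense to coding sequence of F02C12.3 (chromosome X, 13397505 to 13397525), stood first at 564 ± 103 CPM (SD, n = 6), with N2 libraries from 405 to 710 CPM around a median of 568. 21ur-15587, in an intron of ccct-1 on chromosome I and antisense to a pseudogene exon, followed at 195 CPM, and 21ur-10492 (chromosome II, antisense to coding sequence of F15D4.5) at 172 CPM. The N2 ranges of 21ur-15587 (154 to 242 CPM) and 21ur-10492 (98.4 to 335 CPM) overlapped, so their order is not resolved, whereas 21ur-12947 was above both in every N2 library.

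The next in order were mostly antisense to lincRNAs. 21ur-9719 (antisense to linc-22, X) averaged 60.2 CPM, 21ur-11898 (same strand as a UTR exon of Y54F10BM.9, III) 51 CPM, 21ur-9823 (linc-24, III) 44.2 CPM and 21ur-8285 (linc-11, II) 35.7 CPM. N2 replicate 1 was low for several of them: it held 3.51 CPM of 21ur-9719 against 48.6 to 91.2 CPM in the other 5 N2 libraries, and no count of 21ur-9823 against 28.8 to 104 CPM. The other 3 of the 10 highest were antisense to coding sequence: 21ur-10687 in F15D4.5 (38.9 CPM), 21ur-14115 in M02D8.3 on X (35.6 CPM) and 21ur-13757 in CD4.8 on V (33.4 CPM). On chromosome IV itself the highest was 21ur-13215, antisense to a pseudogene exon, at 27.3 CPM.

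Outside piRNAs free of exons were sparse, and the 3 highest by their mean over the 6 N2 libraries, named after their values were seen, all lay just past the right-cluster limit. 21ur-57, which starts at 17217670 on chromosome IV, averaged 19.3 CPM in N2 with replicate 1 and 12.4 CPM without it, and 21ur-4684 (in an intron of cnnm-1) and 21ur-330 start at 17205944 and 17235892. Of the 118 piRNAs beyond the right cluster 88.1% were free of exons, against 50.7% of those on other chromosomes. At the limit itself, 21ur-258, the last tested piRNA inside, had 70.7 CPM in N2 and 21ur-4876, the first outside, 0.495 CPM. At the start of the left cluster the neighbours were 21ur-15588 (outside, 1.77 CPM) and 21ur-13337 (inside, 1.32 CPM), at its end 21ur-13688 (inside, 4.74 CPM) and 21ur-9189 (outside, 6.69 CPM), and at the start of the right cluster 21ur-15591 (outside, 1.03 CPM) and 21ur-6256 (inside, 2.70 CPM).

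The summed level of the outside piRNAs was lower in mutants that lacked pup-1. N2 libraries summed to 1378, 1491, 1543, 1703, 1914 and 2054 CPM. The pup-1(0) libraries summed to 969, 1243 and 1414 CPM, the double mutant to 744, 1256 and 1336 CPM, the triple mutant to 841, 989 and 1005 CPM, and the quadruple mutant to 797, 834 and 852 CPM. All 9 libraries that lacked both pup-1 and pup-2 were below every N2 library, while pup-1(0) overlapped N2 in 1 library. The pup-2 mutant sums (1413, 2055 and 2065 CPM) and the pup-3 mutant sums (1803, 2239 and 2422 CPM) overlapped N2, as did 1 pup-4 mutant library of 1299, 1330 and 1385 CPM. The 3 piRNAs of highest mean count weighed on this separation. Without them the N2 libraries summed to 612 to 969 CPM and the double mutant to 394, 751 and 755 CPM, so that 2 of its 3 libraries lay within N2, whereas pup-1(0) (419 to 554 CPM), the triple mutant (430 to 519 CPM) and the quadruple mutant (467 to 560 CPM) were wholly below N2. Scaled by total counts alone, all 12 libraries lacking pup-1 were below N2. These sums are described without a test; in whole animals, fewer germ cells and less RNA per cell cannot be told apart.

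Antisense piRNAs carried most of these counts. They summed to 1150 to 1589 CPM in N2, 817 to 1285 CPM in pup-1(0), 575 to 1087 CPM in the double, 661 to 841 CPM in the triple and 623 to 663 CPM in the quadruple mutant. The exon-free piRNAs summed to 62.7 to 112 CPM in N2 without replicate 1, 78.6 to 110 CPM in pup-1(0), 106 to 174 CPM in the double, 95.7 to 114 CPM in the triple and 96.7 to 135 CPM in the quadruple mutant, with no genotype wholly below N2. In N2 replicate 1 the exon-free sum was 462 CPM, 4.15 times the next highest N2 library, where the right-cluster sum was 2.74 times the next highest and the antisense sum, 1495 CPM, lay within the other N2 libraries. Set against the right-cluster counts of the same library, the exon-free piRNAs made up 0.240% to 0.609% over all 27 libraries and the antisense piRNAs 1.97% to 8.19%. As a share of all piRNA counts, the outside piRNAs made up 5.56% to 6.65% in N2 without replicate 1, 2.49% in that replicate, 2.55% to 5.35% in pup-1(0) and 3.18% to 4.01% in the quadruple mutant.

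**Figure D2:**
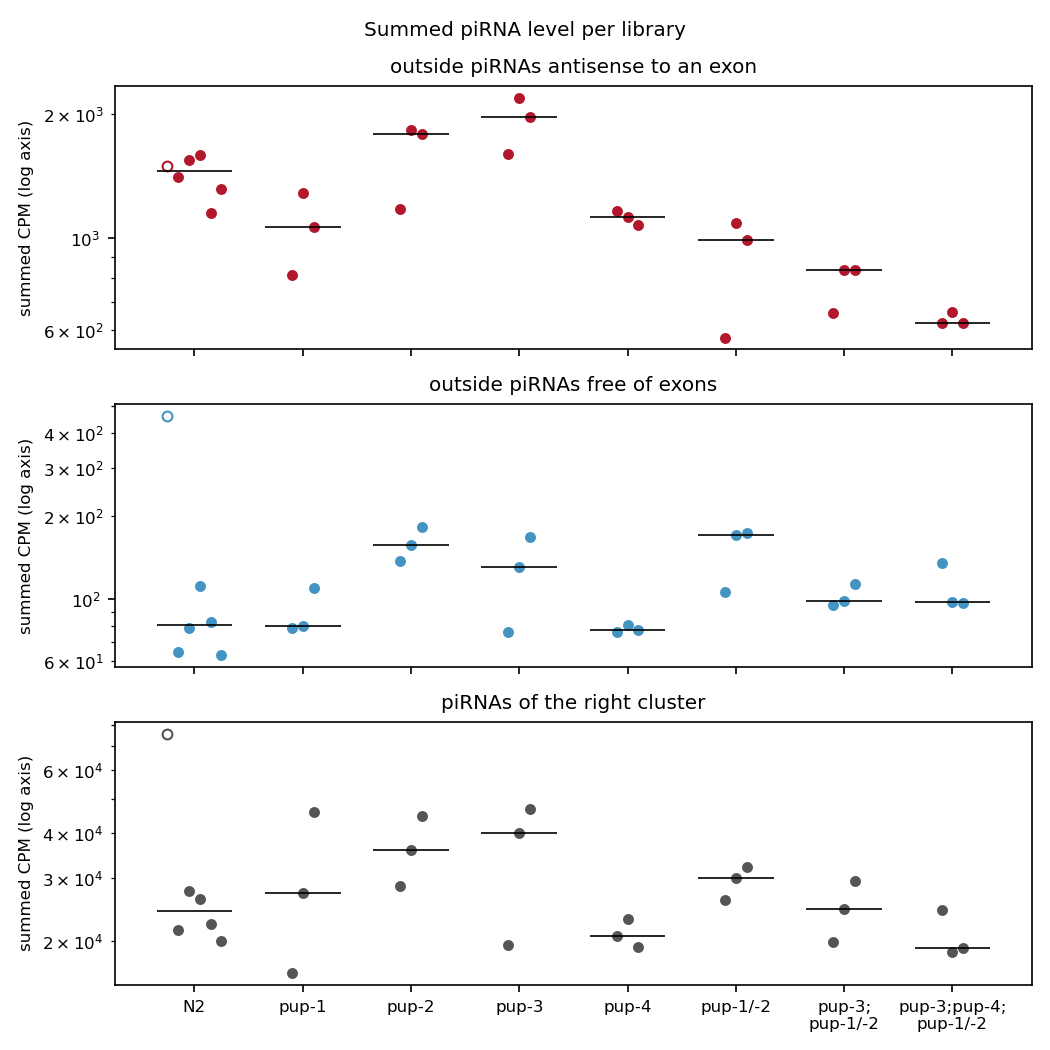
Summed CPM (log axes) in each library for outside piRNAs antisense to an exon, outside piRNAs free of exons and right-cluster piRNAs, by genotype (6 N2 libraries, 3 per mutant); lines are medians and the open symbol is N2 replicate 1. Antisense sums in the quadruple mutant sit between 623 and 663 CPM, below all N2 libraries, whereas the open symbol is high for exon-free (462 CPM) and right-cluster (75970 CPM) piRNAs only.

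Single outside piRNAs were then compared with N2 by edgeR's quasi-likelihood test over all 9645 sRNAs tested; a difference was called (differential abundance, DA) when it exceeded 1 on the log2 scale in either direction with a p, adjusted by Benjamini-Hochberg over all of them, under 0.05. In pup-1(0), 23 of the 102 tested outside piRNAs were DA, 7 higher and 16 lower (22.5%), against 21% of all sRNAs tested (718 higher and 1305 lower), 5.49% of left-cluster piRNAs and 6.57% of right-cluster piRNAs. The outside piRNAs were thus called about as often as sRNAs at large; that difference from the clusters was not tested. In the double mutant 8 were higher and 9 lower (16.7%, background 21.1%), with 4 and 9 (12.7%, background 17.6%) in the triple mutant and for the quadruple mutant 7 and 10 (16.7%, background 21.2%). Their median log2 fold changes were -0.49, -0.08, -0.18 and -0.36 in the 4 strains, against -0.26, -0.12, -0.20 and -0.13 over all sRNAs tested.

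No outside piRNA was DA in the pup-2, pup-3 and pup-4 single mutants by edgeR, where 0.518%, 0.404% and 0.0518% of all sRNAs were. At an unadjusted p under 0.05 there were 12, 15 and 6 outside piRNAs in these strains, where 8.48%, 11.2% and 7.13% of all sRNAs passed, and DESeq2 called 1, 1 and 0. Single libraries moved the counts: without N2 replicate 1, 31 outside piRNAs were DA in the double mutant in place of 17 and 26, 17 and 24 in pup-1(0), the triple and the quadruple mutant, and without pup-1(0) replicate 2, 15 were DA in pup-1(0) in place of 23. Scaled over piRNAs alone, with a much smaller set of tests, 9 were DA in pup-1(0) and 7 in the double mutant.

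By relation to exons, 16 of the 50 tested antisense piRNAs were DA in pup-1(0) (3 higher, 13 lower), 5 of the 16 on the same strand as an exon (3 higher, 2 lower) and 2 of the 36 free of exons (1 each way, 5.56%). Exon-free piRNAs inside the clusters were DA in 6.20% of 2082 cases, and the 56 tested antisense piRNAs inside the clusters in 10.7%. The contrast was narrower in the other strains: antisense and exon-free outside piRNAs were DA in 22% and 11.1% of cases for the double, 16% and 8.33% for the triple and 20% and 11.1% for the quadruple mutant. There the exon-free piRNAs of the clusters were DA in 4.56%, 3.36% and 4.71% of cases. These shares rest on 2 to 4 exon-free outside piRNAs per strain and their differences were not tested. The tested antisense piRNAs had a median N2 level of 4.09 CPM against 1.91 CPM for the exon-free ones, and the part of level in these shares was not tested. The median log2 fold change in pup-1(0) was -0.52 over the tested antisense and -0.55 over the tested exon-free piRNAs. Of the 8 tested piRNAs antisense to a lincRNA, 4 were lower in pup-1(0), but these were 2 pairs, 1 against linc-59 and 1 against linc-22. The 2 that were higher in the double mutant were the linc-59 pair, and none was DA in the triple or quadruple mutant.

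Over the 4 strains lacking pup-1, which share the N2 controls, 35 of the 102 tested outside piRNAs were DA in at least 1, where 36.3% of all sRNAs tested were. They were 19 in 1 strain (background 14.8%), 5 in 2 (7.08%), 3 in 3 (5.79%) and 8 in all 4 (8.66%). Of those 8, 6 were lower throughout (5.87% of all sRNAs tested were) and 2 were higher throughout (2.74%). 5 of the 6 that were lower lay antisense to an exon, among them the pair 21ur-10687 and 21ur-10492 in F15D4.5. Of the 102 tested, 50 were antisense to an exon, and of the 35 DA in at least 1 strain, 21 were.

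**Figure D3:**
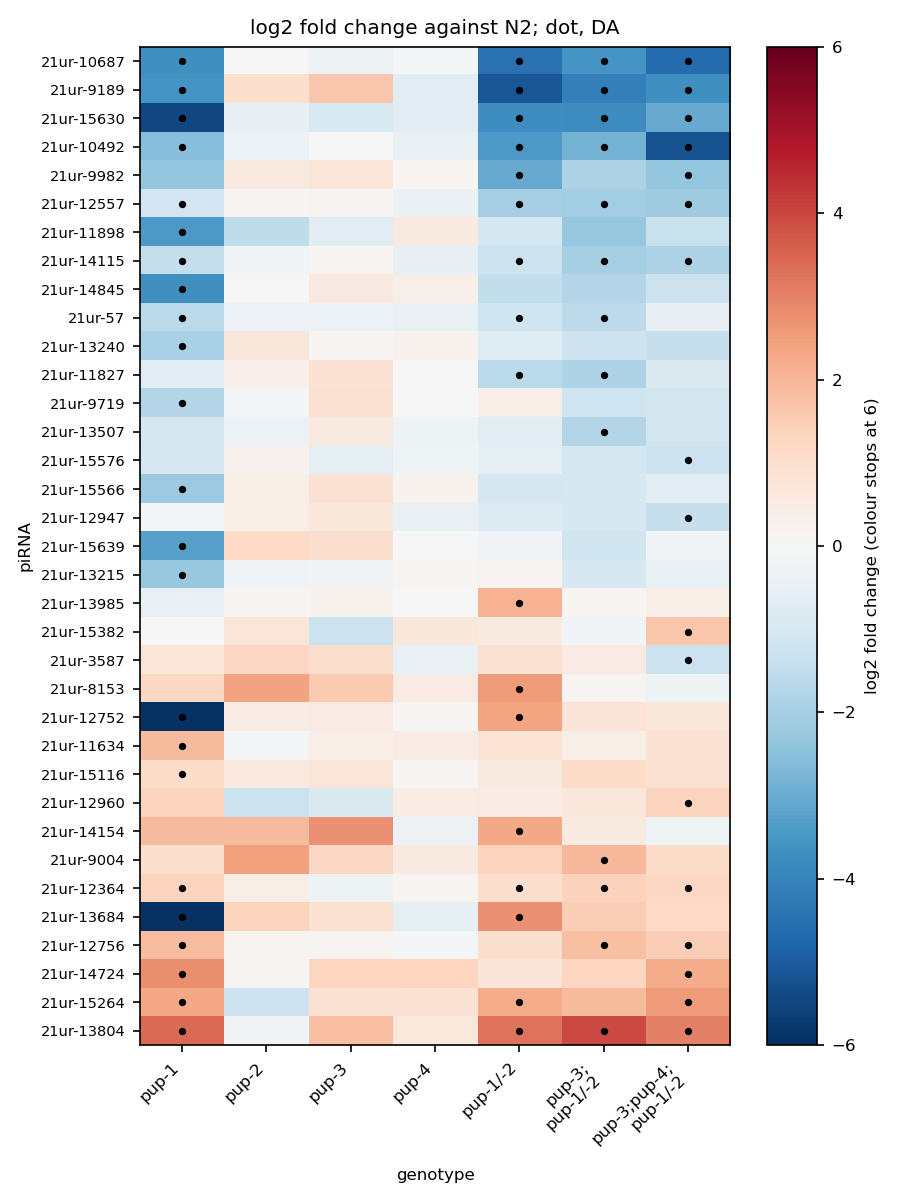
log2 fold change against N2 in each of 7 mutants for the 35 outside piRNAs that were DA in at least 1 strain lacking pup-1, ordered by their median over those 4 strains; dots mark DA, and colour stops at an absolute value of 6. 21ur-10687, 21ur-9189, 21ur-15630, 21ur-10492, 21ur-12557 and 21ur-14115 carry dots in all 4 strains on the lower side, 21ur-12364 and 21ur-13804 on the higher side, and no dot falls in pup-2, pup-3 or pup-4.

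The steepest losses included a pair in 1 gene. 21ur-10687 and 21ur-10492 start 521 bases apart on chromosome II, both antisense to coding sequence of F15D4.5, for which no siRNA row was tested. 21ur-10687 measured 19.6 to 61.0 CPM in N2 (median 40.4), 1.24, 4.08 and 2.82 CPM in pup-1(0), 0.661, 1.69 and 2.86 CPM in the double, 4.69, 3.78 and 2.21 CPM in the triple and 2.01, 1.35 and 1.41 CPM in the quadruple mutant. Every library lacking pup-1 was below every N2 library, while each of the other single mutants overlapped N2. The log2 fold changes were -3.69 ± 0.42 (SE; adjusted p 1.93e-07) in pup-1(0), -4.47 ± 0.44 (5.3e-08) for the double, -3.55 ± 0.42 (6.7e-07) for the triple and -4.61 ± 0.42 (1.21e-08) for the quadruple mutant.

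21ur-10492 fell with it but less evenly. N2 libraries held 98.4 to 335 CPM (median 142), the highest being replicate 1. It measured 3.72, 38.5 and 40.1 CPM in pup-1(0), 5.95, 22.4 and 18.8 CPM in the double, 32.1, 18.3 and 22.3 CPM in the triple and 5.29, 4.33 and 4.10 CPM in the quadruple mutant. Its log2 fold changes were -2.55 ± 0.48 (adjusted p 0.000184), -3.45 ± 0.50 (1.45e-05), -2.86 ± 0.49 (1e-04) and -5.22 ± 0.56 (1.83e-07) in that order. It was the only outside piRNA DA between the quadruple mutant and the triple mutant, at -2.36 ± 0.53 (edgeR, adjusted p 0.0392; 0.612% of all sRNAs were DA there), and that call was lost when any 1 of the 6 libraries was left out (adjusted p from 0.0945 to 0.183).

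The other 4 that were lower in all 4 strains were less abundant. 21ur-15630 lies antisense to a UTR exon of Y38F2AL.12 on IV and measured 8.86 to 26.7 CPM in N2 (median 18.9), and 0, 0.490 and 0.434 CPM in pup-1(0), where its 3 libraries held 0, 3 and 4 counts. In the other 3 strains lacking pup-1 it was between 0.781 and 2.69 CPM, again with no overlap with N2. Its log2 fold changes ran from -5.44 ± 0.59 in pup-1(0) to -3.0 ± 0.45 in the quadruple mutant (adjusted p 1.17e-07 and 1.01e-05).

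21ur-9189 lies just past the left-cluster limit. It is on the same strand as coding sequence of Y43B11AL.1 and not antisense to an exon, but its row took reads of both strands. It measured 2.11 to 13.6 CPM in N2 (median 5.91), 0.619, 0.653 and 0.434 CPM in pup-1(0) and 0.331, 0 and 0.168 CPM in the double mutant, where 3 counts in all were found against 244 in N2. In the pup-2 and pup-3 single mutants its libraries ran from 5.73 to 19.7 CPM and from 8.72 to 29.2 CPM, and neither passed the test (adjusted p 0.534 and 0.134). Its change in pup-1(0) was -3.59 ± 0.67 on the log2 scale (adjusted p 0.000147).

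21ur-12557 (antisense to coding sequence of F40D4.13, V) and 21ur-14115 (M02D8.3, X) showed smaller falls, of -1.15 ± 0.39 and -1.45 ± 0.31 on the log2 scale in pup-1(0) (adjusted p 0.0252 and 0.000728) and of -2.15 ± 0.40 and -1.86 ± 0.31 in the quadruple mutant. N2 libraries held 7.28 to 18.9 CPM of 21ur-12557 and 22.3 to 51.6 CPM of 21ur-14115, and pup-1(0) libraries 7.43, 4.73 and 4.23 CPM and 10.5, 14.2 and 13.6 CPM. Only 21ur-14115 was free of overlap with N2 in pup-1(0). The call on 21ur-12557 there did not hold without pup-1(0) replicate 2 or 3 (adjusted p 0.107 and 0.127).

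2 outside piRNAs were DA and higher in all 4 strains. 21ur-13804, on the opposite strand within an intron of hpo-27 on chromosome I, was nearly absent from N2 (0 to 0.519 CPM, at most 3 counts in a library) and measured 4.33, 1.31 and 2.17 CPM in pup-1(0), 0.827, 2.95 and 2.86 CPM in the double, 2.68, 3.15 and 4.56 CPM in the triple and 1.93, 1.39 and 2.33 CPM in the quadruple mutant. It entered the test only through the mutants in which it was high, so its level in these 12 libraries, above all 6 N2 libraries, is given as a description. Of the 15 outside piRNAs that were DA and higher in at least 1 of the 4 strains, 11 including this one had fewer than 3 N2 libraries at the level of the filter.

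21ur-12364, antisense to a UTR exon of the myosin light chain gene mlc-7 on III, rose by less. It measured 3.16 to 11.9 CPM in N2 (median 3.87), 13.0, 8.81 and 22.9 CPM in pup-1(0) and 16.1, 15.1 and 15.4 CPM in the triple mutant, and only the last of these was clear of N2. The log2 fold changes were 1.36 ± 0.36 (adjusted p 0.00465) and 1.40 ± 0.36 (0.00429), and in the double mutant 1.02 ± 0.36 (0.0295), close to the threshold of 1. The double mutant call was lost in 6 of 9 fits that left out 1 library (N2 replicates 2, 3, 5 or 6, or replicate 1 or 3 of the mutant; 0.88 to 1.40 over the 9 fits), and the pup-1(0) call without replicate 3 (0.87, adjusted p 0.119).

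A pair of piRNAs moved in opposite directions in pup-1(0) and the double mutant. 21ur-12752 and 21ur-13684 start 51 bases apart on chromosome V, both antisense to linc-59 and an overlapping pseudogene, so they are 1 locus rather than 2 independent cases. 21ur-12752 measured 0 CPM in N2 replicate 1, 4.59 to 6.01 CPM in the other 5 N2 libraries, 0, 0 and 0.108 CPM in pup-1(0), and 1.98, 36.5 and 33.1 CPM in the double mutant. The single count in pup-1(0) set against 205 in N2 gave a rate 81.8-fold lower (95% interval from counting alone 14.5 to 3248). 21ur-13684 had no count in any pup-1(0) library against 77 in N2, a level at least 10.2-fold lower by a floor of 3 counts over the group, and measured 1.32, 20.9 and 17.0 CPM in the double mutant.

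Against N2 the test called both lower in pup-1(0) (adjusted p 0.000273 and 0.000653) and both higher in the double mutant, at 2.37 ± 0.56 and 2.76 ± 0.57 on the log2 scale (adjusted p 0.00192 and 0.00059). Replicate 1 of the double mutant lay within N2 for both, so the rise came from replicates 2 and 3, and the overlap of pup-1(0) with N2 came from N2 replicate 1 alone. Replicates 2 and 3 of the double mutant also differed from its replicate 1 in their shares of siRNA and miRNA counts. The part of this in the rise was not tested. Compared directly, the double mutant was above pup-1(0) for 21ur-12752 and 21ur-13684 (edgeR adjusted p 0.000117 and 0.000151), and these were the only 2 outside piRNAs DA in that comparison, where 4.12% of all sRNAs were. In the triple mutant they measured 5.82 to 9.50 CPM and 4.02 to 6.12 CPM, not DA against N2 (adjusted p 0.372 and 0.0628). The triple and double mutants had no outside piRNA DA between them by edgeR, where 0.487% of all sRNAs were. 5 passed an unadjusted p under 0.05 there and DESeq2 also called 0. Without replicate 1 of pup-1(0) or of the double mutant, 6 outside piRNAs were DA between those strains in place of 2.

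**Figure D4:**
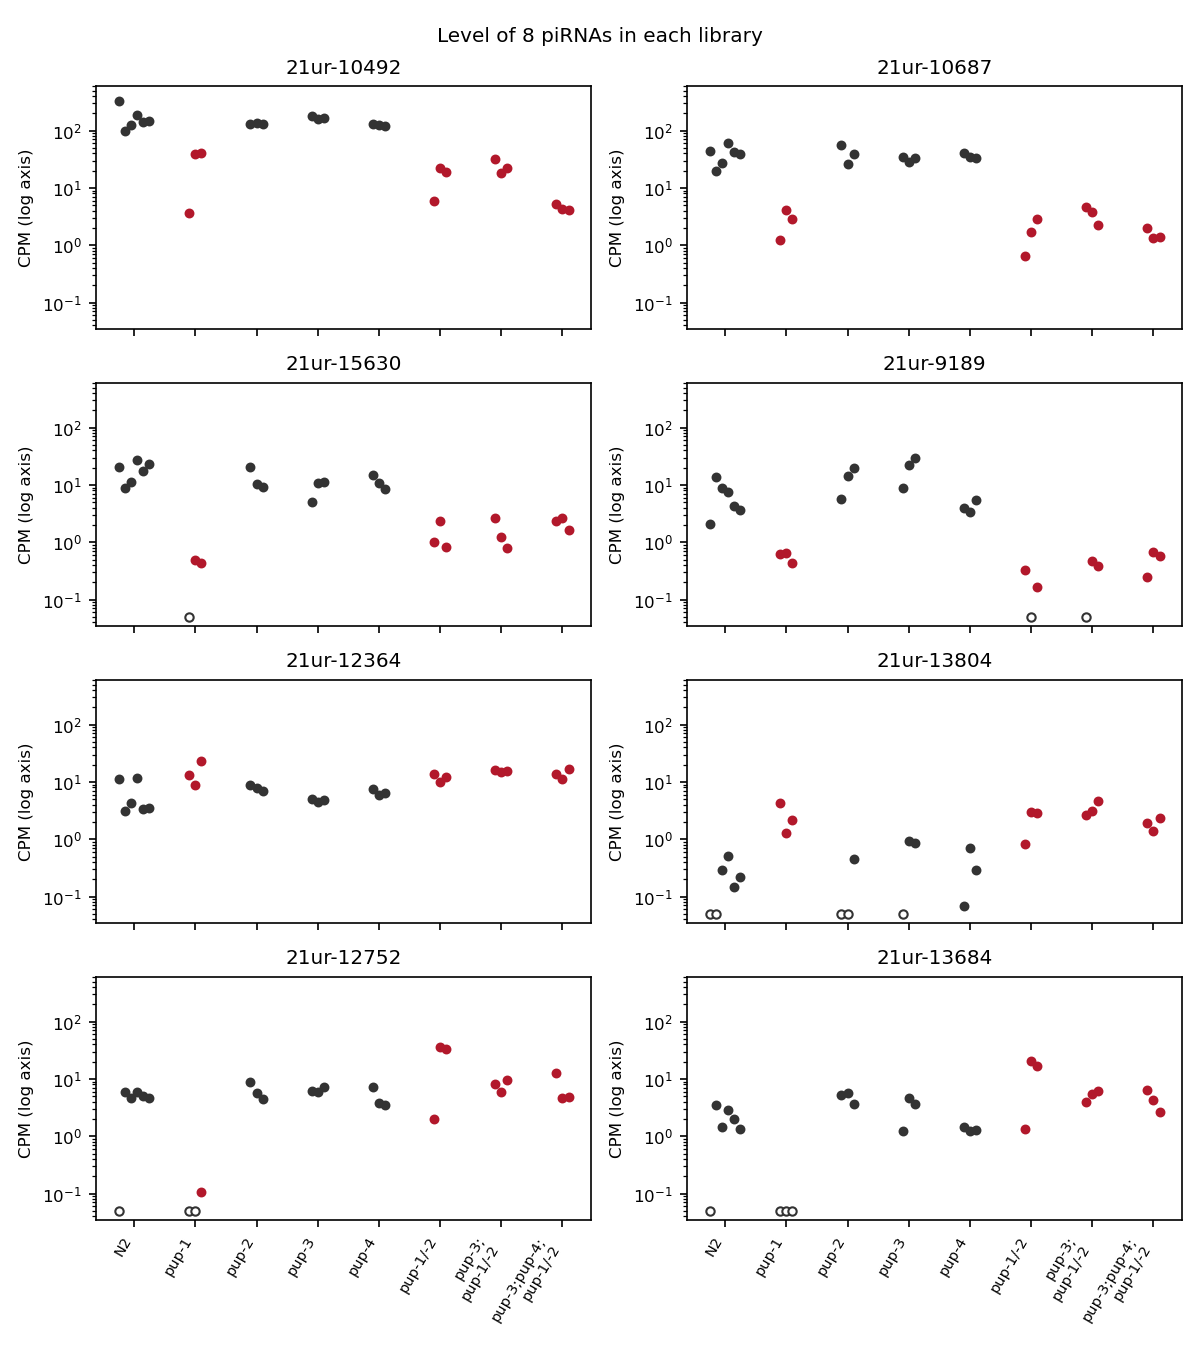
CPM (log axes) of 8 outside piRNAs in each library, by genotype (6 N2 libraries, 3 per mutant), with genotypes lacking pup-1 in red; open symbols mark libraries with no count. The upper 4 are lower in all strains lacking pup-1, 21ur-12364 and 21ur-13804 are higher, and 21ur-12752 and 21ur-13684 are at or near 0 in pup-1(0) and above N2 in 2 of 3 libraries of the double mutant.

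Other outside piRNAs were DA in 1 to 3 of the 4 strains. Among the abundant ones, 21ur-12947 did not pass the test in pup-1(0) (257, 739 and 585 CPM; log2 fold change -0.09 ± 0.31, adjusted p 0.843) and was lower in the quadruple mutant, at 173, 254 and 214 CPM (-1.40 ± 0.33, adjusted p 0.00189), below all N2 libraries. 21ur-15587 was not DA in any strain, its lowest value being -0.92 in the quadruple mutant (adjusted p 0.00189), under the fold threshold, and neither were 21ur-8285, 21ur-9823 and 21ur-13757. 21ur-9719, 21ur-11898 and 21ur-13215 were lower in pup-1(0) (adjusted p 0.0466, 0.0246 and 0.0131), and all 3 calls were lost when only N2 replicates 1 to 3 were used (adjusted p 0.122, 0.391 and 0.133) and again without pup-1(0) replicate 2 or 3. N2 itself was divided for 21ur-11898, with 3.51, 9.49 and 18.5 CPM in replicates 1 to 3 and 140, 82.6 and 50.2 CPM in replicates 4 to 6.

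Rises in part of the strains were mostly of rare piRNAs in or against genes. 21ur-12756, over UTR exons of D2005.3 and D2005.4 on chromosome I, measured 0.703 to 5.28 CPM in N2 and 9.91, 15.2 and 10.4 CPM in pup-1(0) (log2 fold change 1.84, adjusted p 0.000728). 21ur-14724, over UTR exons of abcf-3 and F42A10.5 on III, measured 0 to 0.656 CPM in N2 and 2.48, 3.75 and 1.74 CPM in pup-1(0). 21ur-15264, on the same strand as coding sequence of scc-2, which encodes a cohesin loading factor, was higher in 3 strains, with at most 6 counts in any N2 library. Both entered the test only through mutant libraries.

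The exon-free 21ur-57, named after its values were seen, measured 6.45 to 54.1 CPM in N2, where replicate 1 was the highest and the other 5 reached 18.4 CPM, and 3.72, 5.39 and 8.14 CPM in pup-1(0), which overlapped N2. By log2 fold change it was lower and DA in pup-1(0) (-1.61), the double (-1.21) and the triple mutant (-1.55), and its value of -0.47 in the quadruple mutant did not pass the test. Without N2 replicate 1 the values were -1.16, -0.66, -0.98 and 0.02 (edgeR adjusted p 0.00742, 0.0951, 0.0236 and 0.97), so that only the pup-1(0) call was kept. That call was lost without pup-1(0) replicate 1 or 2.

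The largest remaining fall in pup-1(0) was of 21ur-14845, antisense to coding sequence of the pheromone receptor gene daf-37, with 2 counts in 3 pup-1(0) libraries against 80 in N2 (-3.68, adjusted p 0.00211). 21ur-9982 (intergenic, V) was DA and lower in the double and quadruple mutants (-3.04 and -2.31, adjusted p 0.0244 and 0.0308), with at most 2.11 CPM in N2, and had values of -2.32 in pup-1(0) and -1.85 in the triple mutant that did not pass (0.0636 and 0.138). Its call in the quadruple mutant was lost in 5 of 9 fits that left out 1 library (N2 replicate 3 or 6, or any replicate of the mutant), and that in the double mutant without its replicate 1 or 3. In single strains, 21ur-8153 (intron of daf-10, an intraflagellar transport gene), 21ur-14154 (antisense to K06H6.2), 21ur-9004, 21ur-11634 (same strand as wht-7) and 21ur-15382 were higher, all with N2 means under 2 CPM. Each had fewer than 3 N2 libraries at the level of the filter and passed it only through mutant libraries. A call that holds is therefore no independent support. The call of 21ur-15382 held under every alternative in which it was tested. Those of 21ur-8153, 21ur-9004 and 21ur-14154 were each lost in some fits that left out 1 library.

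piRNAs antisense to coding sequence could be set beside the siRNA row of the gene they overlap. Of the 30 tested, 20 lay in a gene whose siRNAs were also tested. In N2 the piRNA level was 4.90% of the siRNA level at the median and ranged from 0.300% to 104%, where the siRNA row sums over a whole coding sequence and the piRNA row covers 21 bases. Over the 20 pairs, which share libraries, N2 controls and possibly reads, the log2 fold changes of piRNA and gene correlated at Pearson r = 0.94 in pup-1(0), 0.72 in the double, 0.82 in the triple and 0.82 in the quadruple mutant (Spearman's rho 0.91, 0.63, 0.82 and 0.82). In the pup-2, pup-3 and pup-4 single mutants, where none of the 20 was DA, r was 0.69, 0.72 and 0.84 (rho 0.28, 0.38 and 0.77), so a high r was not particular to strains lacking pup-1. A read counted in both rows would make them agree by construction. The pairs are not independent replicates, and no test is attached.

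Of the DA piRNAs among them, 4 of 5 in pup-1(0) and all 4, 3 and 4 in the other 3 strains had siRNAs of the gene DA in the same direction. 21ur-12557 and F40D4.13 siRNAs were both lower in all 4 strains, at -1.15 and -1.72 on the log2 scale in pup-1(0) and at -2.15 and -2.69 in the quadruple mutant. 21ur-14845 and daf-37 siRNAs were lower in pup-1(0) at -3.68 and -5.04. 21ur-14154 and K06H6.2 siRNAs were higher in the double mutant at 2.31 and 2.38, from nearly equal N2 levels of 0.325 and 0.313 CPM. The 2 rows also lay close in other strains, at 2.75 and 2.82 in the pup-3 mutant. Reads antisense to coding sequence met both definitions, and whether these rows held the same reads was not tested. Their agreement is therefore not independent support. For 21ur-14154 the double mutant call was lost in 5 of 9 fits that left out 1 library (N2 replicate 2, 4 or 6, or replicate 2 or 3 of the mutant), and its values of 1.90 in the pup-2 and 2.75 in the pup-3 mutant did not pass. 21ur-12947 and F02C12.3 siRNAs were lower in the quadruple mutant at -1.40 and -1.26. The exception was 21ur-14115 in pup-1(0), at -1.45, where M02D8.3 siRNAs were at -0.90 and not DA.

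**Figure D5:**
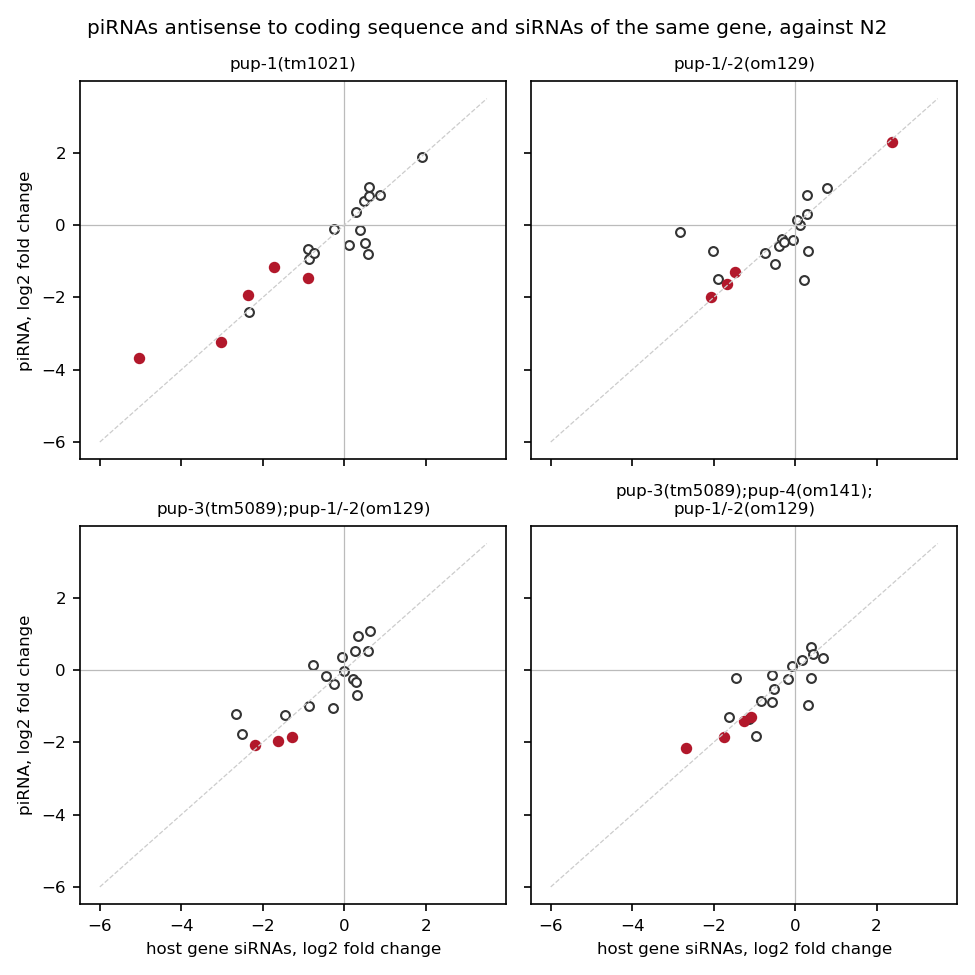
log2 fold change against N2 of 20 piRNAs antisense to coding sequence (vertical axes) and of the siRNAs of the gene each overlaps (horizontal axes) in the 4 strains lacking pup-1; filled points are DA piRNAs and the dashed line marks equal change. In pup-1(0) the points run along the line from 21ur-14845 with daf-37 (-3.68 and -5.04) upwards, and all filled points in the other 3 strains have the sign of their gene's siRNAs.

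Genes that make or use piRNAs are seen in this table only through siRNAs antisense to them. Of 33 gene symbols listed for this pathway, matched as written so that synonyms counted separately, 18 had a row and all 18 were tested. In pup-1(0) and in each of the double and triple mutants 1 was higher and 1 lower, and in the quadruple mutant 1 was higher and 2 lower. Of all sRNAs tested, 21%, 21.1%, 17.6% and 21.2% were DA in pup-1(0), the double, triple and quadruple mutants. None of the 18 passed in the other single mutants. siRNAs against parn-1, the trimming exonuclease, measured 948 ± 278 CPM in N2 (n = 6) and 451 ± 94.1 CPM in pup-1(0) (n = 3; log2 fold change -1.07, edgeR adjusted p 9.83e-05). They were also lower in the triple (-1.02, edgeR adjusted p 0.000194) and quadruple mutants (-1.08, edgeR adjusted p 9.31e-05). In the double mutant they were not DA (-0.43, edgeR adjusted p 0.0743). siRNAs against tost-1 were lower in the double (-1.54, edgeR adjusted p 0.000968) and quadruple mutants (adjusted p 0.00456 in the latter). The only listed gene with higher siRNAs was prom-1, which encodes an F-box protein of meiosis, in all 4 strains (1.58 in pup-1(0), edgeR adjusted p 2.02e-06).

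Markers of germline and somatic tissues were also summed. siRNAs of 19 msp genes in the table, which encode major sperm proteins, summed to 270 ± 51.0 CPM in N2 (n = 6). The sums were 518 ± 168 CPM in pup-1(0), 378 ± 45.3 CPM in the double, 358 ± 35 CPM in the triple and 357 ± 30.1 CPM in the quadruple mutant (n = 3 each). Every library of these 4 strains lay above every N2 library. In the paper, sRNAs raised in the mutants favoured targets with ubiquitous or sperm expression, and msp genes were placed among the ubiquitous ones. Whether the higher msp sums reflect tissue composition or a change in the siRNAs themselves was not tested. The 8 oocyte and embryo miRNAs of the list summed to 22685 to 93709 CPM in N2, and every mutant overlapped this range in at least 1 library. Their means were 52498 CPM in N2, 27646 and 28419 CPM in the double and quadruple mutants, 42945 and 48518 CPM in pup-1(0) and the triple mutant, and 78463, 100244 and 48353 CPM in the pup-2, pup-3 and pup-4 mutants. The muscle miRNA mir-1 averaged 23672 CPM in N2 (3097 to 91340), 3517 CPM in pup-1(0) and 3910 CPM in the triple mutant, and between 6469 and 13403 CPM in the other mutants, again with overlap. Late larval and adult soma miRNAs, 3 of 4 in the table, averaged 2245 CPM in N2 (768 to 7121). Their mean was 3086 CPM in the double mutant and 1092 to 1802 CPM in the other mutants, all overlapping N2. The 2 neuron miRNAs were rare, at 1.11 to 7.04 CPM in N2, and only the pup-3 mutant (8.51 to 24.9 CPM) lay wholly above N2. The part of germline composition in the piRNA differences was not tested.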

How the data were processed

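The submitters deposited 1 table of raw counts per sRNA for 27 libraries. Per the study's methods, RNA treated with 5′ polyphosphatase was sequenced, adapters were removed with cutadapt, reads of 15 to 26 nt were mapped with HISAT2, and the authors counted piRNA and miRNA reads of both strands and siRNA reads antisense to coding sequence summed per gene; handling of reads that map to several places is not given in the sources used here. Positions and overlaps came from Ensembl release 115 (WBcel235), with 3 of 20150 rows not in it.

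From the deposited counts, edgeR 4.0.16 (R 4.3.3) gave TMM factors, filterByExpr with a minimum count of 10 left 9645 sRNAs, and glmQLFTest compared genotypes in 1 fit of 27 libraries, with Benjamini-Hochberg adjustment over all of them. The procedure was tested on simulated data. A floor is 3 counts; floors and intervals cover counting error only. The study's methods also used factors of unwanted variation, tried here among the alternatives with another scaling, DESeq2 1.42.0, other count filters, a replicate block and libraries left out.

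Named piRNAs were the 10 highest in N2, the highest per chromosome, up to 5 largest rises and falls among DA piRNAs per strain, those DA in all 4 strains lacking pup-1, and those beside each cluster limit; others are marked where named. The members and lists were chosen with earlier results of these data known. The study's methods call the replicates independent. For U-tailing they also describe wild-type and mutant replicates run in parallel. The labels do not say which N2 libraries ran with which mutant, so differences between such sets were not modelled. Sequences were not analysed here.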

Additional observations from a re-analysis of the deposited data

Results flagged for a closer look

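N2 replicate 1 lay apart from the other 5 N2 libraries in several sums. Its left-cluster piRNAs reached 4560 CPM (others 555 to 1041) and its right-cluster piRNAs 75970 CPM (others 20046 to 27698). Outside piRNAs on chromosome IV reached 491 CPM (others 126 to 216), those beyond the right cluster 342 CPM (others 48.7 to 89.5) and those free of exons 462 CPM (others 62.7 to 112), or 22.5% of the outside counts (others 4.18% to 6.01%). Outside piRNAs took 2.49% of its piRNA counts (others 5.56% to 6.65%).

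Among single piRNAs, N2 replicate 1 was also far above the rest for 21ur-10492 (335 CPM, others 98.4 to 184), 21ur-57 (54.1 CPM, others 6.45 to 18.4) and 21ur-15382 (3.51 CPM, others 0.633 to 1.56), and at 0 CPM for 21ur-12752 (others 4.59 to 6.01). N2 replicate 2 was above the rest for 21ur-8153 (1.58 CPM, others 0 to 0.519). These are 12 of 42 N2 sets of values examined, where the nominal rate of the criterion under chance is about 1 in 20, and several of them overlap in content.

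3 differences between mutants passed the test directly. The double mutant was above pup-1(0) for 21ur-13684 (log2 fold change 9.65) and 21ur-12752 (8.34), values that rest on 0 and 1 counts in pup-1(0). The quadruple mutant was below the triple mutant for 21ur-10492 (-2.36).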

How the results depend on the processing

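The number of DA outside piRNAs moved with the scaling and the filter, and the cause was not tested. It was 23 in pup-1(0), 17 in the double, 13 in the triple and 17 in the quadruple mutant. Among piRNAs alone it was 9, 7, 8 and 8. With a minimum count of 50 it was 13 in pup-1(0), 11 in the double and 10 in the quadruple mutant, and with a minimum of 10 CPM 13, 10 and 10, where fewer piRNAs were tested. DESeq2 gave 22 in the triple mutant, 1 in the pup-2 and 1 in the pup-3 mutant. N2 replicates 1 to 3 alone gave 11 in the double mutant; N2 replicates 4 to 6 alone gave 27 there, 20 in the triple, 1 in the pup-2 and 2 in the pup-3 mutant. With 6 factors of unwanted variation the pup-2 mutant had 2 and the pup-3 mutant 1. Outside piRNAs free of protein-coding exons gave 7, 6, 3 and 4 in the 4 strains lacking pup-1. The double mutant against pup-1(0) gave 2, but 5 by DESeq2 and 12 with the factors; triple against double gave 0, but 3 with the factors; quadruple against triple gave 1, but 0 with DESeq2's size factors in edgeR, among piRNAs alone and with no filter, 3 by DESeq2 and 4 with the factors. Leaving out 1 library, the counts ranged from 15 to 26 in pup-1(0), 14 to 31 in the double, 12 to 17 in the triple and 13 to 24 in the quadruple mutant, 0 to 0, 0 to 1 and 0 to 0 in the pup-2, pup-3 and pup-4 mutants, 2 to 6, 0 to 1 and 0 to 0 between mutants.

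With the replicate number as a block the counts were 17 in pup-1(0), 12 in the double, 16 in the triple, 18 in the quadruple, and 0 in the pup-2, pup-3 and pup-4 mutants, and between mutants 2, 0 and 1. The labels give no pairing behind the numbers; same-numbered libraries deviated together (r over 0.1) in 6 of 21 pairs and differently numbered ones in 11 of 42.

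No named piRNA changed direction. Of 636 values under alternatives other than leaving out a library, 83 lost their call: 29 among piRNAs alone, 13 under the block, 12 with N2 replicates 1 to 3, 10 with the factors, 8 with no filter, 4 by total counts, 4 with N2 replicates 4 to 6 and 3 with DESeq2's size factors. Of 549 values without a library 57 lost it.

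The share of piRNA counts outside the clusters rests on a few piRNAs. In the order N2, pup-1(0), pup-2, pup-3 and pup-4 mutants, double, triple and quadruple mutant, it was 2.457%, 1.808%, 1.979%, 2.511%, 2.896%, 1.927%, 1.852% and 2.225% without the 3 most abundant, and 1.808%, 1.443%, 1.565%, 1.97%, 1.833%, 1.588%, 1.5% and 1.582% without those on protein-coding exons. Without 1 library it ran from 5.355% to 6.187%, 3.666% to 5.065%, 4.391% to 4.889%, 4.973% to 6.721%, 5.6% to 6.023%, 3.088% to 3.766%, 3.438% to 3.8% and 3.481% to 3.899%. The mean summed level in the same order was 750.2, 478.2, 757.1, 880, 671, 633.2, 479.8 and 506.7 CPM without the 3 most abundant, and 557.8, 382.8, 608.9, 708.8, 425.7, 522.3, 395.3 and 361.8 CPM without those on protein-coding exons. By total counts it moved to 1825 CPM in the pup-3, 1520 in the pup-4, 1078 in the triple and 969.4 in the quadruple mutant. Without 1 library it ran from 1606 to 1741, 1106 to 1328, 1734 to 2060, 2021 to 2331, 1314 to 1358, 999.7 to 1296, 915.1 to 997 and 815.8 to 843.4 CPM.

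Depth limits the rare piRNAs: 3 counts stand for 0.144 to 3.74 CPM depending on the library, so differences under that level were not detectable in the shallowest ones.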
